A study of Mus musculus with 6 samples.

Results

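A set of 10 genes that the transcription factor p53 is known to activate was followed in infarcted mouse left ventricles: *Sesn1*, *Cdkn1a*, *Mdm2*, *Ccng1*, *Trp53inp1*, *Bax*, *Phlda3*, *Eda2r*, *Zmat3* and *Gdf15*. They are 10 of the 17556 genes in the table of expression values, and all 10 passed the filter on low counts that left 13817 genes for testing. The group was picked by name, and it was selected on a measured value, since *Sesn1* was lower in the ventricles with Cre. The difference of *Sesn1* between the genotypes is therefore not a finding here. Every value of the 10 genes in this contrast is given as a description, and their p-values enter only as counts past a threshold.

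Bulk RNAseq was available for 6 left ventricles, 3 from Cre-negative siblings (*Yap* fl/fl;*Wwtr1* fl/+) and 3 that were Cre-positive (*Yap* fl/fl;*Wwtr1* fl/+;*Postn* MCM). *Yap* and *Wwtr1* encode the transcriptional co-activators that the Hippo kinases restrain. *Postn* MCM is a tamoxifen-inducible Cre (MerCreMer) in the endogenous periostin locus, which is active in myofibroblasts, so the Cre-positive mice could lose both alleles of *Yap* and 1 allele of *Wwtr1* in those cells, and they carry the altered *Postn* locus that their siblings lack. Both genotypes were 6 to 10 weeks of age, had the left anterior descending artery permanently ligated, ate tamoxifen citrate chow from surgery on and were sampled at 4 days post injury. The labels number 3 samples in each genotype without saying whether each is 1 mouse, so p-values measure the spread between these samples. Neither uninjured ventricles nor Cre-positive ventricles without floxed alleles were analysed here.

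p53, encoded by *Trp53* in mice, is held at a low level by the ubiquitin ligase Mdm2 and accumulates after DNA damage, oxidative stress and other insults. It binds DNA as a tetramer on pairs of a short consensus motif and switches on genes for cell cycle arrest, for cell death, for antioxidant and nutrient control, and for its own removal. In the infarcted heart its targets are expressed by dying and surviving cardiomyocytes as well as by the leukocytes, fibroblasts and vessel cells of the wound. Several of the 10 genes also answer to other factors, *Sesn1* to the FoxO factors and *Gdf15* to Atf4 and the integrated stress response. In a whole ventricle, fewer cells of a type and less RNA per cell cannot be told apart.

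The promoters of the genes were searched for the p53 consensus decamer, which reads the same on both strands, in RefSeq windows of GRCm38.p6 that run from 250 bases before to 50 bases after a start site. Windows were found for 8 of the 10 genes, 11 windows in all, and *Trp53inp1* and *Zmat3* were without one. The 10-base motif was present for 5 of the 8 genes (62.5%), against 2582 of all 27025 genes with a window (9.55%). The 25 other p53 targets described below had it in 7 of the 19 with a window (36.8%). The 5 matches are shown, 5′ to 3′ on the strand of the gene, because they are the stretches that match the consensus, which allows several letters at most positions, so they differ from one another. Capitals mark the motif and lower case the 20 bases on each side.
Cdkn1a: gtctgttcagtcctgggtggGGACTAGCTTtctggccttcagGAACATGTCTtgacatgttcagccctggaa
Sesn1: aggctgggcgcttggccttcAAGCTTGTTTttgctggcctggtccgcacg
Ccng1: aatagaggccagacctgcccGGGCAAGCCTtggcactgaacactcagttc
Mdm2: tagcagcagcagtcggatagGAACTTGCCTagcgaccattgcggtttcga
Bax: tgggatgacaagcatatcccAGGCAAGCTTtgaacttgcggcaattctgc
The *Cdkn1a* stretch (chr17:29090886-29090957, plus strand) holds the motif at 73 and at 51 bases before the start site, 12 bases apart. Pairs of exact matches with a gap of at most 13 bases were in 24 of 32851 windows (0.0731%), and among the 10 genes only in that of *Cdkn1a*. A full p53 response element has this layout, but its decamers can depart from the consensus. Pairs with such a decamer were not searched for, so elements in these windows can have been missed. This includes the lower case next to the marked motifs of *Cdkn1a* and *Ccng1*. The *Sesn1* match (chr10:41887246-41887295, plus strand) starts 173 bases before a start site that lies inside the annotated gene. The others start 185 bases before that of *Ccng1* (chr11:40755442-40755491, minus strand), 186 before that of *Mdm2* (chr10:117710915-117710964, minus strand) and 201 before that of *Bax* (chr7:45467070-45467119, minus strand). A match describes the letters only, and the 6 windows with no match (those of *Phlda3*, *Eda2r* and *Gdf15*, and the other window of *Sesn1* and of *Cdkn1a*) say nothing about sites elsewhere in those genes.

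Depth was even over the samples. Libraries held 13177888 to 14827579 estimated counts, and no library was a copy of another. The library of Cre-negative replicate 1 stood apart. Its chi-square against each of the others, divided by the number of genes (1 would be counting noise alone), was 44.2 to 68.3, while other pairs gave 8.07 to 17.0, and its mean correlation with the others over log2 counts was 0.9655 against 0.9766 to 0.9809. In TPM, a level that is scaled by gene length and by library, its sum over 15 proliferation genes was 124.6, against 287.1 to 412.2 in the other ventricles, and that of 5 neutrophil markers was 412.9 against 48.38 to 156.3. The log2 fold changes of the 10 genes and the medians of the lists and markers are therefore given with and without it. The targeted genes could not be checked in whole ventricles, because their counts include reads from every cell type and from exons outside the floxed ones. In normalized counts, which are counts scaled to a common library size, *Yap1* was at 1420 to 1548 in the Cre-negative and 1437 to 1616 in the Cre-positive ventricles, and *Wwtr1* at 1464 to 1617 and 1560 to 1662. *Postn* was at 12165, 24655 and 26879 in the Cre-negative and at 12690, 14249 and 13495 in the Cre-positive ventricles.

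Across the genome 1 gene of 13817 passed an adjusted p of 0.05 in edgeR's quasi-likelihood test (0.00724%), the interferon-inducible GTPase gene *Gbp2b* (named after its value was seen), and none of the 10 p53 target genes did. At an unadjusted p under 0.05, 394 genes were higher with Cre (2.85%) and 412 were lower (2.98%). Of the 10 genes, 0 were among the former and 1, *Sesn1*, was among the latter, and since the group was picked on *Sesn1* nothing is read from that count. The 3 ventricles of a genotype lay apart from the 3 of the other with no overlap for 1043 genes higher with Cre (7.55%) and 946 genes lower with Cre (6.85%), and for *Gdf15* and *Sesn1* among the 10, 1 in each direction. The median log2 fold change of the 10 genes (Cre-positive over Cre-negative) was 0.08, and over all genes tested it was 0.01. Without Cre-negative replicate 1 the medians were 0.05 and 0.00, and without Cre-negative replicate 2 they were 0.21 and 0.015. The log2 fold change was above 0 for 7 of the 10 genes and below 0 for 3, and over all genes tested for 7077 and 6740.

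**Figure D1:**
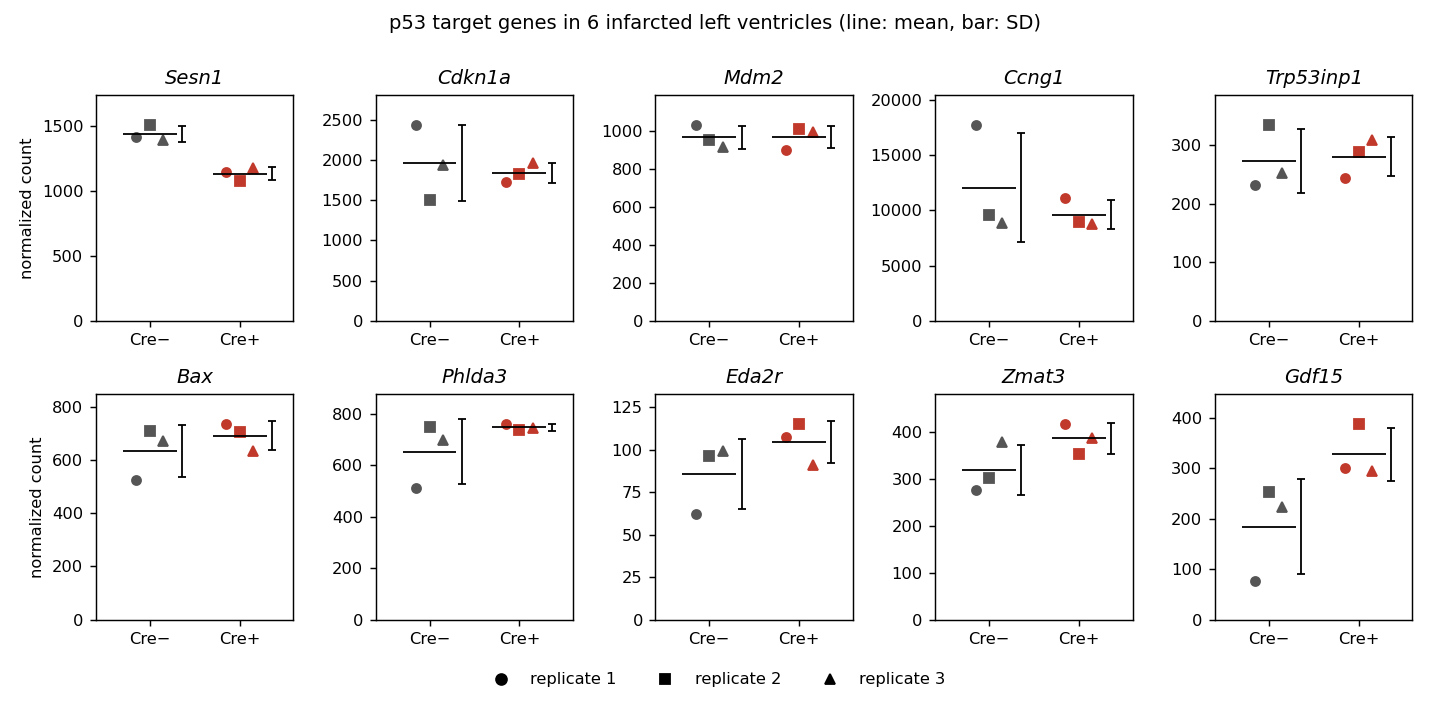
Normalized counts (y axis, linear from 0, own scale in each panel) of the 10 p53 target genes in each left ventricle, by genotype. Points are single ventricles with their replicate number as the marker, lines are means and bars are SD (n = 3), and the genotypes do not overlap for *Sesn1* (1392 to 1510 against 1077 to 1178) and *Gdf15* (77.63 to 252.3 against 295.0 to 387.9).

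The plot of normalized counts by ventricle shows the pattern that runs through the group. The circle of Cre-negative replicate 1 was the lowest of the 6 ventricles for *Trp53inp1*, *Bax*, *Phlda3*, *Eda2r*, *Zmat3* and *Gdf15* and the highest for *Cdkn1a*, *Mdm2* and *Ccng1*. It was thus at an end of the range for 9 of the 10 genes and, for *Sesn1*, between the other Cre-negative ventricles. Over all genes tested that library was the lowest for 32.1% and the highest for 30.8%.

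Per length, the levels of the 10 genes spanned from *Ccng1*, at a mean of 399.3 TPM over the 6 ventricles (rank 391 of the 17556 genes), to *Eda2r*, at 2.33 TPM (rank 11985). Between them lay *Cdkn1a* at 131.6 TPM, *Bax* at 106.6, *Phlda3* at 65.02, *Sesn1* at 62.27, *Mdm2* at 39.15, *Gdf15* at 33.42, *Trp53inp1* at 6.66 and *Zmat3* at 5.85. The ranges over the ventricles overlapped between *Cdkn1a* (103.5 to 151.5 TPM) and *Bax* (74.09 to 122.9), between *Phlda3* (41.91 to 73.18) and *Sesn1* (55.43 to 72.86), between *Mdm2* (36.14 to 44.24) and *Gdf15* (8.82 to 53.56) and between *Trp53inp1* (4.95 to 7.97) and *Zmat3* (4.06 to 6.89), so the order within these pairs did not exceed the spread. The other neighbours in the order did not overlap. These levels are those of the whole ventricle.

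Among the genes of cell cycle arrest and of feedback on p53, the genotypes overlapped throughout. *Cdkn1a* (chr17:29090979-29100722 on GRCm38.p6, the build of every position given) encodes p21, the inhibitor of cyclin-dependent kinases through which p53 stops the cell cycle. Its normalized counts were 2444, 1500 and 1936 in the Cre-negative ventricles and 1722, 1829 and 1967 in the Cre-positive ventricles. The Cre-negative ventricles held both the highest and the lowest value of the 6, and the Cre-positive values lay between them. Their means were 1960 ± 473 and 1839 ± 123 (SD, n = 3 each), a log2 fold change of -0.09 ± 0.17 (SE). Without Cre-negative replicate 1 it was 0.09, and on log2(TPM + 1) it was 0.05, so no direction is given for *Cdkn1a*.

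*Mdm2* (chr10:117688875-117710758) encodes the ubiquitin ligase that p53 induces and that degrades it. It was at 1034, 951.2 and 915.4 normalized counts in the Cre-negative ventricles and at 902.2, 1012 and 994.5 in the Cre-positive ventricles. The values interleaved, and the means of 966.8 ± 60.8 and 969.7 ± 59.1 differed by far less than either SD. The log2 fold change was 0.00 ± 0.09 (SE), and it stayed between -0.03 and 0.05 when each ventricle was left out in turn. None of the 6 *Mdm2* counts was a whole number, as happens where shared reads are divided.

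*Ccng1* (chr11:40748552-40755309) encodes cyclin G1, which binds the phosphatase PP2A and takes part in the Mdm2 feedback loop. Its normalized counts were 17780, 9565 and 8841 in the Cre-negative ventricles and 11088, 8966 and 8719 in the Cre-positive ventricles. One value, that of Cre-negative replicate 1, was well above the other 5. The means were 12062 ± 4965 and 9591 ± 1302 (SD), with a log2 fold change of -0.33 ± 0.27 (SE), and leaving that library out gave 0.06.

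The 4 genes of cell death had log2 fold changes from 0.04 to 0.28, all above 0, and the genotypes overlapped for each. *Bax* (chr7:45461695-45466903) encodes the Bcl2 relative that opens the outer mitochondrial membrane. It was at 523.4, 707.7 and 670.5 normalized counts in the Cre-negative ventricles and at 735.9, 704.7 and 632.1 in the Cre-positive ventricles. Only Cre-negative replicate 1 lay below all Cre-positive values. Its log2 fold change was 0.12 ± 0.13 (SE), and -0.00 without that ventricle.

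*Phlda3* (chr1:135766085-135769134) encodes a pleckstrin homology domain protein that competes with the kinase Akt for membrane lipids. Its normalized counts were 510.5, 749.9 and 699.7 in the Cre-negative ventricles and 761.8, 735.2 and 744.4 in the Cre-positive ventricles. By coefficient of variation, its Cre-positive values were the closest together of the 10 genes, at 747.1 ± 13.5 (SD, n = 3), against 653.4 ± 126 in the siblings. This gave a log2 fold change of 0.19 ± 0.14 (SE), and 0.04 without Cre-negative replicate 1.

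*Eda2r* (chrX:97333837-97377234), a receptor of the tumour necrosis factor family that binds ectodysplasin A2, was the least abundant of the 10 genes. Its normalized counts were 62.34, 96.2 and 99.12 in the Cre-negative ventricles and 107.5, 115.5 and 90.85 in the Cre-positive ventricles. The lowest Cre-positive value lay below 2 of the 3 Cre-negative values. Its log2 fold change was 0.28 ± 0.22 (SE), and 0.10 without Cre-negative replicate 1.

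*Trp53inp1* (chr4:11156441-11174379), whose product takes part in p53-dependent death and in autophagy, was at 232.9, 335.7 and 252.7 normalized counts in the Cre-negative ventricles and at 244.0, 289.1 and 309.7 in the Cre-positive ventricles. The lowest and the highest value both belonged to the Cre-negative siblings. The log2 fold change was 0.04 ± 0.17 (SE), -0.07 without Cre-negative replicate 1 and 0.21 without Cre-negative replicate 2.

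*Gdf15*, *Zmat3* and *Sesn1* act outside the arrest and death branches, and the genotypes lay apart for *Gdf15* and for *Sesn1*, on which the group was picked. *Gdf15* (chr8:70629393-70632470) encodes a secreted stress cytokine of the transforming growth factor beta family that circulates after myocardial infarction. Its normalized counts were 77.63, 252.3 and 223.5 in the Cre-negative ventricles and 299.7, 387.9 and 295.0 in the Cre-positive ventricles. Every Cre-positive value lay above every Cre-negative value. The means were 184.5 ± 93.6 and 327.6 ± 52.3 (SD, n = 3 each), a fold of 1.77 and a log2 fold change of 0.82 ± 0.37 (SE). Without Cre-negative replicate 1, whose value was under those of the other 5 ventricles, the log2 fold change was 0.46.

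*Zmat3* (chr3:32334792-32365665) encodes a zinc finger protein that binds RNA and takes part in splicing and stability of transcripts. It was at 276.4, 301.4 and 379.9 normalized counts in the Cre-negative ventricles and at 418.2, 353.7 and 387.8 in the Cre-positive ventricles. One Cre-negative value lay within the Cre-positive range. Between the genotypes the log2 fold change was 0.27 ± 0.14 (SE), and 0.18 without Cre-negative replicate 1. *Zmat3* lies on the chromosome of *Postn* and *Wwtr1*, at 22.0 and 25.1 Mb from them on GRCm38.p6, and alleles linked to the engineered loci were not examined. Of its 6 counts, 1 was not a whole number.

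*Sesn1* (chr10:41810574-41908436) encodes sestrin 1, a stress-induced protein that lowers peroxides and restrains the kinase mTORC1 through the GATOR complexes. Its normalized counts were 1416, 1510 and 1392 in the Cre-negative ventricles and 1141, 1077 and 1178 in the Cre-positive ventricles. All 3 Cre-positive values lay below all 3 Cre-negative values, which is the difference the group was picked on. The means were 1439 ± 62.3 and 1132 ± 51.2 (SD, n = 3 each), a fold of 0.787 and a log2 fold change of -0.35 ± 0.08 (SE). Its coefficient of variation was 4.33% in the siblings and 4.52% with Cre. Leaving out each ventricle in turn gave -0.38 to -0.31, with -0.36 for Cre-negative replicate 1.

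**Figure D2:**
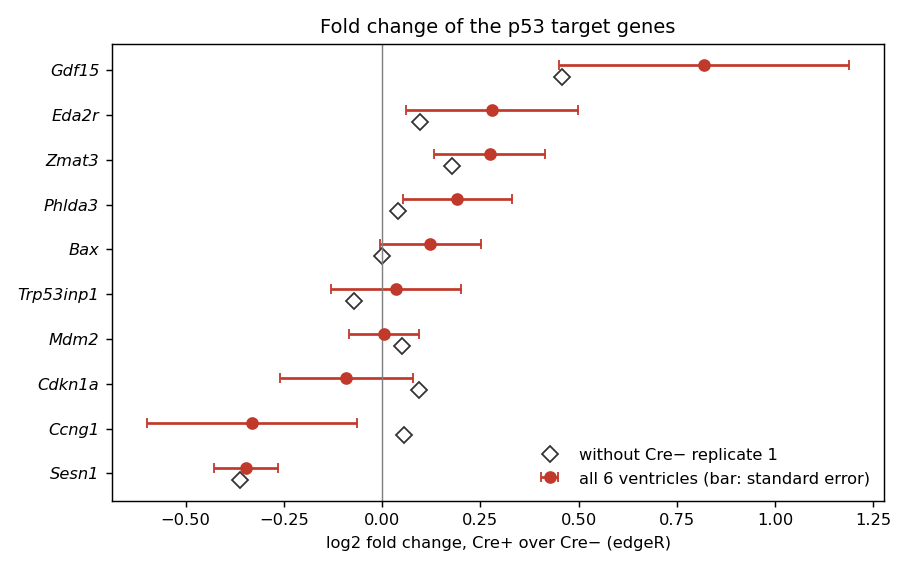
Log2 fold change (x axis, Cre-positive over Cre-negative) of each of the 10 genes (y axis) from edgeR, with all 6 ventricles (filled points, bars are the standard error) and without Cre-negative replicate 1 (open diamonds). The diamonds lie closer to 0 than the points for *Gdf15* (0.46 against 0.82) and *Ccng1* (0.06 against -0.33), while for *Sesn1* they lie together (-0.36 and -0.35).

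In the plot of log2 fold changes, the 10 genes do not line up on one side of 0, and 8 of them moved towards or across 0 when Cre-negative replicate 1 was left out. *Sesn1* and *Mdm2* did not. The sign differed from that with all 6 ventricles for *Cdkn1a*, *Ccng1*, *Trp53inp1* and *Bax*.

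The cardiomyocyte markers lay on the same side of 0 as *Sesn1*. All 9 of them, among them *Myl2*, *Tnnt2* and *Tnni3* of the contractile apparatus, had log2 fold changes below 0, with a median of -0.32, and for 6 of the 9 the genotypes did not overlap, which was so for 6.85% of all genes in that direction. None passed an adjusted p of 0.05 in edgeR. Their summed TPM was 56534, 47719 and 47489 in the Cre-negative ventricles and 42073, 41195 and 47072 in the Cre-positive ventricles, also without overlap, and none of the markers was near 0. Without Cre-negative replicate 1 the median was -0.15, while *Sesn1* was at -0.36. *Sesn1* was at 1.1, 1.53 and 1.42 TPM for each 1000 TPM of these markers in the Cre-negative ventricles and at 1.32, 1.37 and 1.27 in the Cre-positive ventricles. On this scale, chosen after the data were seen, the genotypes overlapped and the log2 ratio was -0.02. Without Cre-negative replicate 1, which held the most marker TPM, they did not overlap and the log2 ratio was -0.16. The share of all genes that lie apart on this scale without that library was not counted, so nothing is read from this. Because the markers were lower with Cre, this scale raises genes in general, and 36.4% of all genes tested were higher with Cre on it without overlap and 0.188% lower. Of the 10 genes, 5 were higher without overlap (*Cdkn1a*, *Mdm2*, *Phlda3*, *Zmat3* and *Gdf15*), a count that the scaling itself favours and from which nothing is read. *Gdf15* was at 0.156, 0.67 and 0.597 against 0.91, 1.3 and 0.839, a log2 ratio of 1.33, and of 0.66 without Cre-negative replicate 1. The part of the cardiomyocyte share in the difference of *Sesn1* was not tested.

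Of the other cell types, 7 fibroblast markers summed to 4501, 7248 and 6459 TPM in the Cre-negative ventricles and to 8302, 7245 and 8323 in the Cre-positive ventricles, with a median log2 fold change of 0.12 with and without Cre-negative replicate 1. The 7 macrophage markers (median log2 fold change -0.005, and -0.15 without that library) summed to 3060 to 4935 TPM and 3986 to 4660, and the 5 endothelial markers (median 0.065, and 0.009 without it) to 406.6 to 510.9 and 508.1 to 578.3. Those of smooth muscle summed to 377.1, 767.2 and 875.4 TPM in the siblings and to 855.1, 985.0 and 948.9 with Cre, with a median of 0.37 over 4 genes, and 0.10 without Cre-negative replicate 1. The neutrophil markers had a median of -0.90 over 5 genes, which turned to 0.67 without Cre-negative replicate 1. They summed to 412.9, 85.86 and 48.38 TPM in the siblings and to 156.3, 66.55 and 127.7 with Cre. T cell markers (2 of 4 tested, 1.73 to 5.05 TPM in the siblings and 3.52 to 8.38 with Cre) had a median of 0.88 and B cell markers (4 genes, 10.36 to 41.55 and 7.22 to 60.7 TPM) of 0.40, and 0.54 and 0.16 without that library. No marker passed an adjusted p of 0.05 in edgeR. Their part in the values of *Gdf15* and the other p53 target genes was not tested.

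**Figure D3:**
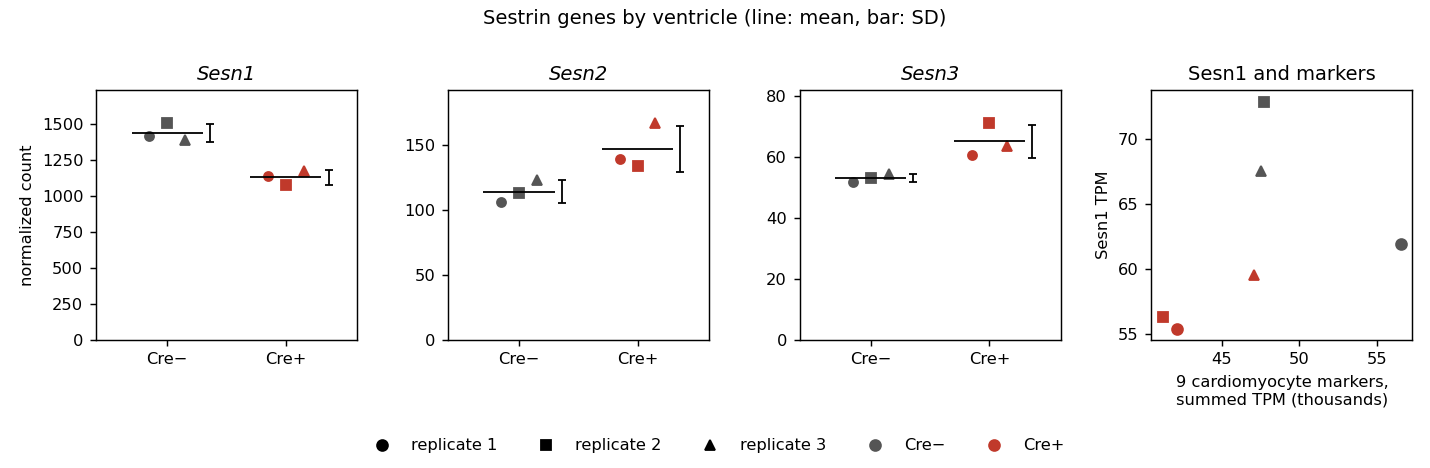
Left, normalized counts (y axis, linear from 0) of the 3 sestrin genes by genotype, with single ventricles as points, the mean as a line and the SD as a bar (n = 3). Right, *Sesn1* TPM (y axis) against the summed TPM of 9 cardiomyocyte markers (x axis, in units of 1000 TPM) in each ventricle, both axes cut to the range of the data. *Sesn1* was lower with Cre while *Sesn2* and *Sesn3* were higher, each without overlap, and the ventricle with the most marker TPM (56534) was not the one with the most *Sesn1*.

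The other sestrins lay on the other side. *Sesn2*, which is induced by p53 and by Atf4 and senses leucine, was at 105.9, 112.9 and 123.4 normalized counts in the Cre-negative ventricles and at 139.4, 133.9 and 167.0 in the Cre-positive ventricles. *Sesn3*, a FoxO target, was at 51.75, 53.01 and 54.42 against 60.75, 71.12 and 63.5. Both were higher in every Cre-positive ventricle, as the plot of the sestrin genes shows, and both were far less abundant than *Sesn1*, at 6.49 and 3.65 TPM against 62.27. The log2 fold changes were 0.36 ± 0.15 (SE) for *Sesn2* and 0.30 ± 0.19 for *Sesn3*, with an adjusted p of 0.714 for each in edgeR, and 0.31 and 0.27 without Cre-negative replicate 1. Among the 11 genes of the sestrins and GATOR complexes, without *Sesn1*, the median was -0.04, and -0.005 without Cre-negative replicate 1, and *Sec13*, *Seh1l* and *Nprl2*, the most abundant, were at 0.06, -0.10 and -0.09, and at -0.005, -0.11 and -0.08 without that library.

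The genes whose counts were most like those of *Sesn1* over the 6 ventricles, by Pearson's r of log2 normalized counts, were *Bri3* (0.981), *Timm10b* (0.980), *Zfp784* (0.980), *Smpdl3a* (0.979) and *Pqbp1* (0.976). All share the same 6 libraries, and genes chosen for their likeness to *Sesn1* carry its difference between the genotypes by that choice. *Bri3*, for example, was at 2276, 2503 and 2367 normalized counts in the siblings and at 2013, 1873 and 2074 with Cre. No other p53 target gene of the 10 was among them. Their r with *Sesn1* ran from -0.66 for *Zmat3* and -0.62 for *Gdf15* to 0.32 for *Ccng1*.

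Further genes of the pathway were taken as 9 lists with 112 distinct genes, of which 108 were tested. None passed an adjusted p of 0.05 in edgeR or DESeq2. At an unadjusted p under 0.05, edgeR gave 12 of the 108 genes, 8 higher and 4 lower, and DESeq2 gave 9. That is 11.1% of the list genes against 5.83% of all genes in edgeR, and 8.33% against 5.88% in DESeq2. Leaving out Cre-negative replicates 1, 2 and 3 in turn gave 7, 8 and 18 list genes (6.48%, 7.34% and 16.7% of those tested), against 6.59%, 6.46% and 9.61% of all genes. Leaving out Cre-positive replicates 1, 2 and 3 gave 6, 4 and 8 (5.5%, 3.67% and 7.34%), against 3.98%, 2.68% and 3.68%.

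**Figure D4:**
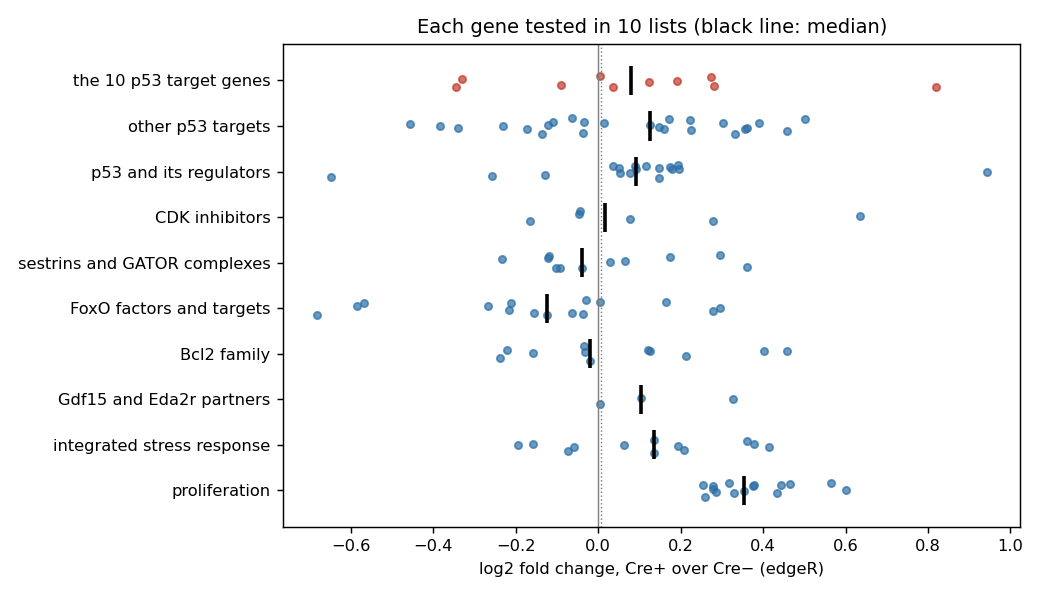
Log2 fold change (x axis, Cre-positive over Cre-negative, edgeR) of each gene tested in the 10 p53 target genes and in 9 further lists (y axis), with 1 point for each gene and a black line at the list's median. The dotted line is the median of all genes (0.01), and the medians run from -0.12 (FoxO factors and targets) to 0.35 (proliferation).

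Of the 25 other p53 targets, 14 were above 0 and 11 below, with a median log2 fold change of 0.13, and 0.04 without Cre-negative replicate 1. For 6 of them the genotypes did not overlap with Cre higher, and for 2 with Cre lower, against 7.55% and 6.85% of all genes. The most abundant were *Ak1* (adenylate kinase 1, 411.3 TPM), *Perp* (a desmosome protein, 223.6 TPM) and *Rps27l* (135.0 TPM), at log2 fold changes of -0.34 ± 0.20 (SE), -0.38 ± 0.16 and 0.15 ± 0.10. The genes for death, *Fas* (a death receptor) and *Bbc3* (the BH3 protein Puma), were at -0.14 ± 0.15 and 0.13 ± 0.15, with adjusted p = 0.792 and 0.805. *Btg2*, which restrains proliferation, and *Plk2*, a polo-like kinase, were at 0.17 ± 0.09 and 0.23 ± 0.11, and *Ppm1d*, the phosphatase Wip1 that switches p53 signalling off, at 0.16 ± 0.12 (adjusted p = 0.714, 0.714 and 0.722). Without Cre-negative replicate 1, *Ak1* was at -0.09, *Perp* at -0.17, *Fas* at -0.09, *Bbc3* at 0.04, *Btg2* at 0.15, *Plk2* at 0.12 and *Ppm1d* at 0.11. At an unadjusted p under 0.05 stood *Pidd1* (0.50), *Plk3* (0.36), *Polk* (0.39) and *Sesn2* above 0 and *Dcxr* (-0.46) and *Perp* below, and *Pidd1*, *Plk3*, *Polk* and *Dcxr* are named after their values were seen. Each had an adjusted p of 0.714, and without that library *Pidd1* was at 0.41, *Plk3* at 0.25, *Polk* at 0.36 and *Dcxr* at -0.47.

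*Trp53* itself was at 844.5, 1079 and 1044 normalized counts in the Cre-negative ventricles and at 1109, 1121 and 1133 in the Cre-positive ventricles. Its Cre-positive values lay above all Cre-negative ones and within a narrow range. The log2 fold change was 0.18 ± 0.11 (SE; adjusted p = 0.714), and 0.08 without Cre-negative replicate 1. *Mdm4*, the partner of Mdm2 that masks the activation domain of p53, was at 0.20 ± 0.08, also without overlap and with the same adjusted p, and 0.19 without that library. The 17 tested genes for p53 and its regulators had a median of 0.09, and 0.08 without Cre-negative replicate 1. Of these, 14 were above 0, against 7077 of all 13817 genes tested. For 5 of the 17 the genotypes did not overlap with Cre higher, and for 0 with Cre lower, against 7.55% and 6.85% of all genes. *Ppp1r13l* and *Usp7*, the most abundant after *Trp53*, were at -0.13 and 0.15, and at 0.03 and 0.14 without that library. *Chek1*, the checkpoint kinase, was named after its value was seen, at 0.94 ± 0.32 (adjusted p = 0.714) and 1.93 TPM, and at 0.75 without Cre-negative replicate 1.

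The genes of kinase inhibitors and of the Bcl2 family were spread about 0, with 3 of 6 and 5 of 11 above it. Of the 6 other inhibitors of cyclin-dependent kinases, the median was 0.02, and 0.01 without Cre-negative replicate 1, and none lay apart between the genotypes. *Cdkn1b* (p27) was at -0.05 ± 0.11 (SE) and *Cdkn1c* (p57) at -0.17 ± 0.20, with adjusted p = 0.914 and 0.808, while *Cdkn2d* and *Cdkn2c* were at -0.05 and 0.28, and at -0.08 and 0.10 without that library. Of 11 genes of the Bcl2 family the median was -0.02, and -0.09 without that library, with *Mcl1*, *Bak1* and *Bcl2l1*, the most abundant, at -0.03, 0.12 and -0.24, and at -0.09, 0.01 and -0.25 without it. *Bcl2* stood at 0.40 ± 0.14 (adjusted p = 0.714), and 0.30 without that library, and is named after its value was seen. The FoxO factors and their targets had a median of -0.12 over 15 genes, and -0.11 without Cre-negative replicate 1, with 11 below 0. *Bnip3* (mitophagy) was at -0.59 ± 0.32 and *Gabarapl1* (autophagy) at -0.03 ± 0.10, and at -0.07 and 0.02 without Cre-negative replicate 1. *Trim63*, the muscle ubiquitin ligase MuRF1, was at -0.27 ± 0.11, and at -0.20 without that library. *Klf15*, named after its value was seen, was at -0.68 ± 0.23, and at -0.37 without that library (adjusted p = 0.714 for *Trim63* and *Klf15* with all ventricles).

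Of the integrated stress response, which also induces *Gdf15*, 12 genes were tested and had a median of 0.135, and 0.02 without Cre-negative replicate 1. Its most abundant genes *Atf4*, *Atf5* and *Ddit4* were at 0.06, -0.07 and -0.20 (-0.01, 0.04 and -0.21 without that library), and all 3 overlapped between the genotypes. For 2 of the 12, *Sesn2* among them, the genotypes did not overlap with Cre higher, and for 0 with Cre lower. Of all genes, 7.55% and 6.85% did so. Among the partners of Gdf15 and Eda2r, the adaptor *Traf3* was at 608.1, 592.9 and 674.4 normalized counts in the Cre-negative ventricles and at 782.7, 786.9 and 783.5 in the Cre-positive ventricles. Its log2 fold change was 0.33 ± 0.08 (SE; adjusted p = 0.714), and 0.30 without Cre-negative replicate 1. The 3 tested partners had a median of 0.10, and 0.06 without that library. *Traf6* was at 0.10 ± 0.11 and *Eda*, the gene of the ectodysplasins, at 0.00 ± 0.17, and at 0.06 and -0.03 without that library. *Edar* and *Edaradd* were too low to test, as were *Trp73* and *Fgf21* of the other lists, and *Gfral*, the receptor gene of Gdf15, was not in the table.

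All 15 proliferation genes were above 0, with a median of 0.35, but for none of them were the genotypes apart, and without Cre-negative replicate 1 the median was 0.05. *Ccna2*, *Mcm6* and *Plk1*, the most abundant, were at 0.46, 0.28 and 0.43, and at 0.15, 0.09 and 0.10 without that library. *Ccna2* was at 298.8, 679.3 and 766.7 normalized counts in the Cre-negative ventricles and at 722.0, 971.6 and 719.0 in the Cre-positive ventricles. *Ccna2*, like 9 of the 10 p53 target genes, thus had an extreme value in Cre-negative replicate 1.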

How the data were processed

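The authors deposited estimated counts from RSEM, not normalized, for each gene in each left ventricle, and a TPM value that scales it by gene length and library. The submitters' processing notes name Bowtie2 2.2.5, RSEM 1.2.12 and GRCm38.p6. The deposited FPKM values were not used, nor was the deposited comparison of the genotypes (fold changes and p-values). Of the counts, 11.46% were not whole, and they were rounded.

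Genes were kept by filterByExpr in edgeR 4.0.16 (R 4.3.3) (count limit 10, total limit 15). After TMM scaling, edgeR's quasi-likelihood test was fitted to all 13817 genes with genotype as its sole term and Benjamini-Hochberg adjustment at 0.05, after the steps had been tested on simulated data. A normalized count is a count divided by the TMM-scaled library size, times the mean total of 14273417. Fold changes are Cre-positive over Cre-negative. TPM was used for levels between genes, for summed markers and for the alternatives on the TPM scale. Libraries held 13177888 to 14827579 counts, and precision is limited by 3 ventricles a genotype.

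The members and lists were chosen with earlier results of these data known. Genes named by rule were the 10 members, the targeted genes, the 3 most abundant of each list, 12 chosen by name and the 5 most like *Sesn1*. *Pidd1*, *Plk3*, *Polk*, *Dcxr*, *Chek1*, *Bcl2* and *Klf15* were added after their values were seen, at an unadjusted p under 0.05 in edgeR. Outside the lists, genes past the adjusted threshold were named after their values were seen too. Any gene past the adjusted threshold in a list was to be named too. Alternatives were DESeq2 1.42.0 (its size factors in edgeR, and its Wald test), other filters, a replicate block, each ventricle left out in turn, and limma 3.58.1 on log2(TPM + 1) and log2(TPM + 0.1). Motifs were searched in Python 3.11.15, and positions and promoters were taken from RefSeq GRCm38.p6.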

Additional observations from a re-analysis of the deposited data

How the results depend on the processing

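None of the 10 p53 target genes and none of the 108 genes of the lists passed the adjusted threshold under any setting run for them. The number of genes past it over the whole table was 1 with all ventricles, 0 with the replicate block (1217 at an unadjusted p under 0.05), 5 with the DESeq2 Wald test (*Rpl34-ps1*, *Plod2*, *Gm4724*, *Zfp965* and *Gbp2b*) and 0 to 2 when each ventricle was left out: 2, *Postn* and *Gbp2b*, without Cre-negative replicate 1, and 0 without Cre-negative replicate 3, Cre-positive replicate 1 or Cre-positive replicate 3 (1346, 556 and 513 at an unadjusted p under 0.05). *Postn* had a log2 fold change of -0.66 with all ventricles (adjusted p = 0.714 in edgeR). It was -0.94 without Cre-negative replicate 1 (adjusted p = 0.0182 in edgeR) and -0.45 without Cre-negative replicate 3 (adjusted p = 0.552 in edgeR). The cause was not tested. The labels do not say that replicate numbers pair the samples. Deviations of same-numbered ventricles correlated at 0.35, 0.07 and -0.03, and those of unlike numbers at -0.37 to 0.35. With 3 ventricles a genotype this cannot decide whether the samples were paired. The block gave *Sesn1* -0.35 and *Gdf15* 0.93.

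Leaving out single ventricles gave -0.13 to 0.0209 for *Cdkn1b*, -0.0242 to 0.0615 for *Yap1* and -0.34 to 0.0256 for *Cdkn1c*, so these log2 fold changes have no stable sign. Over 14 settings the log2 fold change ran from -0.38 to -0.02 for *Sesn1*, on which the group was picked, and from 0.46 to 1.33 for *Gdf15*. On log2(TPM + 1), where the median of all genes shifted to 0.11, *Sesn1* was at -0.23, *Cdkn1a* at 0.05, *Ccng1* at -0.15 and *Gdf15* at 1.06. The scale relative to cardiomyocyte markers was added after the data were seen.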
